A study of Mus musculus with 10 samples.

Results

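SR proteins, Tra2 proteins, hnRNPs and RBM proteins of the embryonic mouse cortex were followed after knockdown of Chd8, a chromatin remodeler. The genes were taken by symbol, as every gene named Srsf or Sfrs with a number, Tra2a or Tra2b, Hnrnp with a suffix, or Rbm with a number. This rule found 68 of the 23235 genes in the tables, and the 63 with a mean of at least 1 FPKM in control libraries are described. They comprise 12 SR genes, 2 Tra2 genes, 18 hnRNP genes and 31 RBM genes, and they were the same 63 genes in both tables. FPKM counts fragments relative to transcript length and to the mapped fragments of the library, so levels of different genes can be set side by side. All 63 also passed the filter for testing, which required an average of 1 FPKM or more across a set.

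These proteins bind precursor mRNA and steer the spliceosome. SR proteins carry RNA recognition motifs and a tail rich in arginine and serine, bind exonic enhancers and recruit the splicing machinery. hnRNPs coat nascent transcripts, often oppose SR proteins at the same exons, and also act in mRNA export and stability. Tra2 proteins are relatives of the SR proteins, and the RBM genes are a mixed group named only for an RNA-binding motif. Many of these genes limit their own protein through alternative splicing to transcripts that nonsense-mediated decay removes, and in developing cortex the balance of such factors shapes the splicing programme of new neurons.

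Plasmids carrying GFP and either a control shRNA or one that targets Chd8 were electroporated into radial glial cells of mouse cortex in utero at embryonic day 13. GFP-positive cells were sorted at embryonic day 15 from pools of 3 to 5 embryos, so each library is a pool of animals and holds only transfected cells and their progeny. A new set, with 3 control and 3 knockdown libraries (replicates 10, 11 and 12), used one Chd8 shRNA, and a first set, with 2 control and 2 knockdown libraries (replicates 1 and 2), used another, each with its own table. Effects of shRNA, batch and table cannot be told apart between the sets. In both, fewer cells of a type and less RNA per cell cannot be told apart, because the libraries are bulk.

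Chd8 itself was at 3.59, 3.30 and 4.02 FPKM in the new-set controls and at 2.09, 1.84 and 1.93 FPKM in the knockdowns. It fell by 0.65 ± 0.12 (SE) on the log2 scale (limma, adjusted p = 0.0213; exact two-sided permutation p = 0.1, the smallest that 3 against 3 libraries allow). The call was lost without any 1 library other than control replicate 11 (adjusted p 0.053 to 0.0829). Chd8 of the first set was at 12.4 and 13.8 FPKM in controls and 8.56 and 9.23 FPKM in knockdowns, which did not pass the test (adjusted p = 0.152; exact permutation p = 0.333, the smallest for 2 against 2). Absolute depth is unknown, and steps in low FPKM values put both first-set knockdowns at 0.527 and 0.528 times the depth of control replicate 1. Those 2 libraries also stood apart in olfactory receptor genes, whose mean was 1.39 and 0.993 FPKM against at most 0.0217 FPKM in the other 8 libraries.

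Cell type markers moved with the knockdown in both sets. Genes of cortical identity were present in every library, but their summed level was higher in the new-set knockdowns (1522 to 1685 FPKM in controls, 1859 to 2008 FPKM in knockdowns) and lower in those of the first set (2006 to 2287 against 1158 to 1339 FPKM). Of these 8 genes Emx2, Pax6 and Lhx2 fell and Neurod6 rose in the new set, whereas Pax6, Neurod6 and Eomes fell in the first. In the new set 8 of 13 tested radial glia genes fell and none rose (summed level 1420 to 1849 FPKM in controls, 1146 to 1718 FPKM in knockdowns). Of 14 cortical neuron genes 4 rose and none fell (2670 to 3184 against 3758 to 4624 FPKM), and all 5 tested GABAergic interneuron genes fell (18.6 to 27.6 against 9.18 to 9.29 FPKM). Erythroid genes fell in 2 of 5 cases (149 to 280 against 23.6 to 115 FPKM). In the first set 6 of 14 neuron genes fell (5102 to 5560 against 3506 to 3788 FPKM), 3 of 13 radial glia genes fell (1873 to 1914 against 1069 to 2231 FPKM), and 3 of 6 microglia genes rose (1.52 to 5.96 against 10.7 to 24.5 FPKM). No marker of these lists was at 0 in every library of a set except the embryonic globin Hbb-bh1 in the first set. The part of these shifts in the values below was not tested.

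Control levels spread widely within each family. In the new-set controls the most abundant SR genes were Srsf2 at 436 ± 18.3 FPKM (SD, n = 3), Srsf3 at 423 ± 30.9 FPKM, Srsf7 at 265 ± 24.7 FPKM and Srsf9 at 212 ± 16.1 FPKM. Srsf2, a nuclear speckle protein, and Srsf3, which also links mRNA to export, did not differ beyond their spread, and neither did Srsf9 and Srsf5 (210 ± 3.51 FPKM). The highest hnRNP was Hnrnpk, a KH-domain protein that binds C-rich RNA, at 1083 ± 56.6 FPKM, ahead of Hnrnpab (809 ± 112 FPKM), Hnrnpa2b1 (596 ± 57.4 FPKM) and Hnrnpu (524 ± 25 FPKM). Among RBM genes the cold-inducible Rbm3 led with 287 ± 28.4 FPKM, then Rbm39 (144 ± 9.77 FPKM), Rbm42 (119.7 ± 8.55 FPKM) and Rbm17 (92.5 ± 6.16 FPKM), the last within the spread of Rbm18 (90.8 ± 6.72 FPKM). Tra2b was at 245 ± 20.8 FPKM and Tra2a at 49.2 ± 1.27 FPKM. In the first-set controls, which were normalized separately, Srsf2 was at 68.8 ± 15 FPKM (SD, n = 2), Srsf4 at 14.5 ± 2.57 FPKM and Rbm42 at 13.3 ± 5.64 FPKM, whereas Hnrnpk again led its family at 1609 ± 293 FPKM.

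In the new set 6 of the 63 genes fell and none rose. Over all 11291 genes tested 5.15% fell and 3.84% rose (limma on log2(FPKM + 1), adjusted p under 0.05 called changed). The 6 were the SR genes Sfrs18, Srsf5 and Srsf4 and the RBM genes Rbm45, Rbm39 and Rbm26. No hnRNP and neither Tra2 gene changed, although 3 hnRNPs were among the 12 genes that fell when libraries were scaled to equal sums without small RNA genes (8.16% of all genes lower and 1.9% higher in that fit). Without adjustment 10 of the 63 had limma p under 0.05, 9 of them lower. The same held for 3389 of all 11291 genes tested, 1660 lower and 1729 higher, so this count does not set the 63 apart. Adding 1 to the FPKM shrinks the fold change of genes with low levels.

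**Figure D1:**
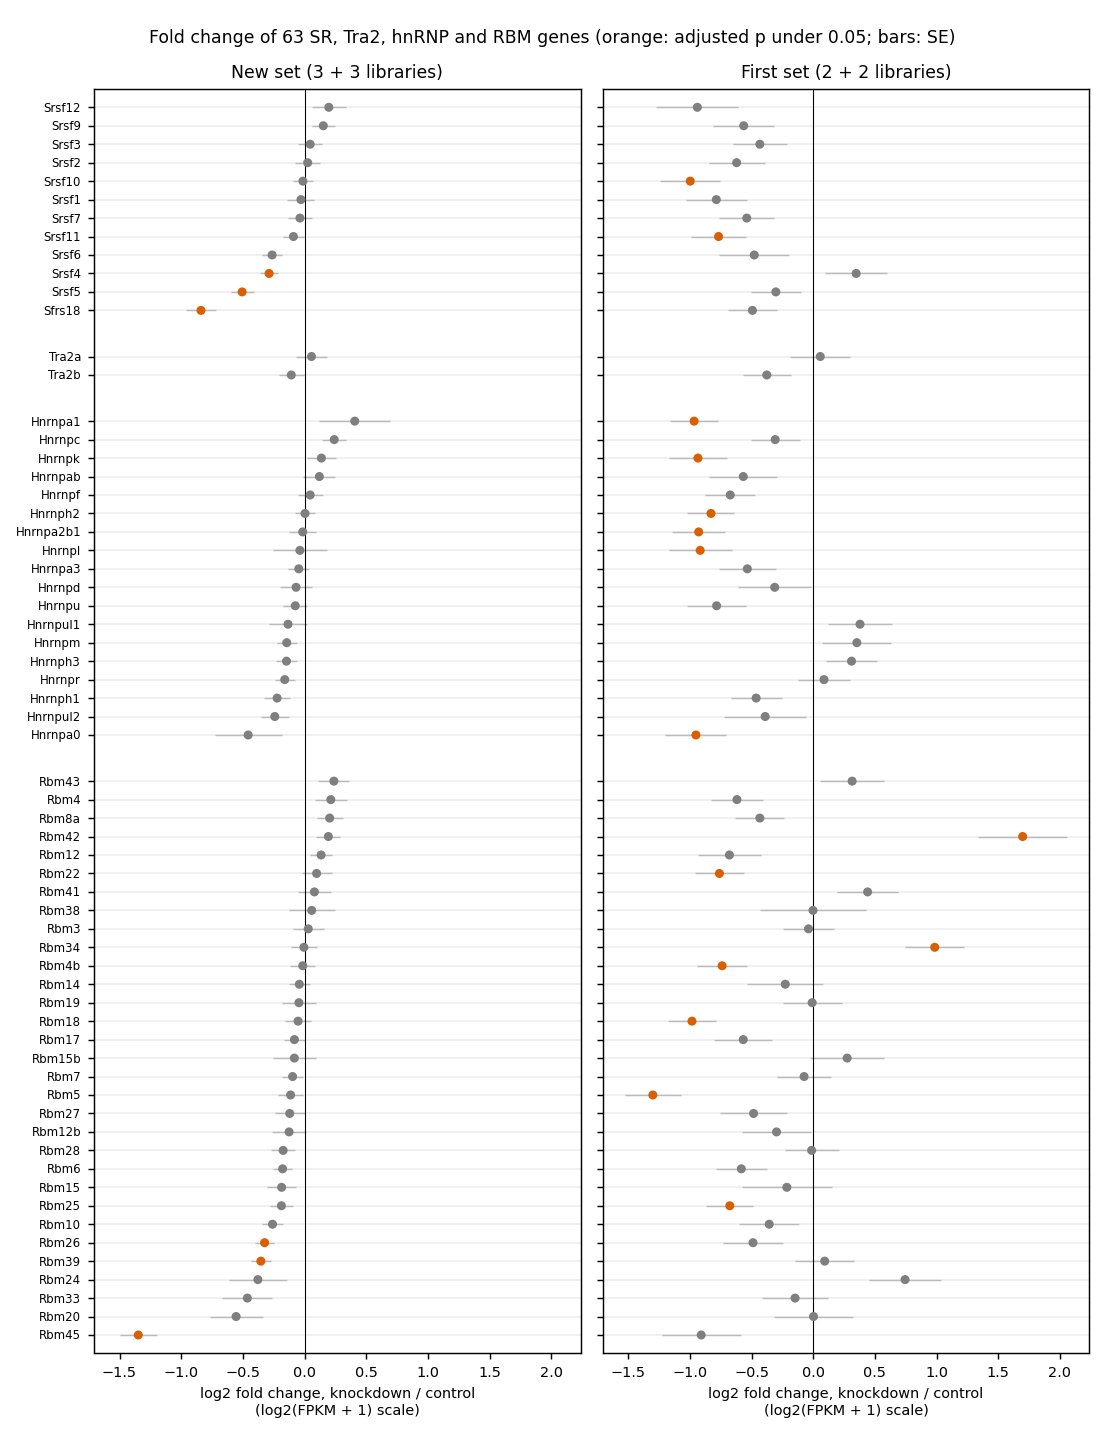
Log2 fold change, knockdown against control, on the log2(FPKM + 1) scale for all 63 genes in the new set (left) and the first set (right), on a shared horizontal axis. Points are limma estimates, bars are 1 SE, and orange marks adjusted p under 0.05; the 6 orange points on the left are all below 0, and on the right 13 are below 0 and 2 above.

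Sfrs18, now named Pnisr, encodes a protein rich in serine and arginine that binds the speckle protein pinin. It was at 24.9, 24.1 and 25.8 FPKM in the new-set controls and at 12.6, 12 and 16.2 FPKM in the knockdowns. Every knockdown library lay below every control, and the mean was 54.5% of control (log2 fold change -0.84 ± 0.12 (SE), limma adjusted p = 0.0131). Without knockdown replicate 11 the call was lost (adjusted p = 0.0514). First-set Sfrs18 was at 74.4 and 85.1 FPKM in controls and 54.8 and 57.7 FPKM in knockdowns, again without overlap, but did not pass the test (-0.49, adjusted p = 0.111).

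Srsf5, an SR protein that binds purine-rich exonic enhancers, was at 207, 214 and 208 FPKM in the new-set controls and 137, 141 and 165 FPKM in the knockdowns. Its mean was 70.5% of control with no overlap (-0.51 ± 0.09 (SE), limma adjusted p = 0.0226). Its first-set level was at 458 and 509.5 FPKM in controls and at 371 and 413 FPKM in knockdowns (-0.30, adjusted p = 0.299). The new-set call was lost in 4 of the 6 runs that left out 1 library, those without control replicate 10 or 12 or knockdown replicate 10 or 11, where the adjusted p reached at most 0.0978.

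Srsf4, the SR protein with the longest arginine- and serine-rich tail, showed a small shift with tight groups. Controls were at 106, 108 and 101 FPKM and knockdowns at 86.4, 84.9 and 86.0 FPKM in the new set, so the mean was 81.8% of control (-0.29 ± 0.07 (SE), limma adjusted p = 0.0455). First-set values went the other way, with 12.7 and 16.3 FPKM in controls and 16.4 and 21.0 FPKM in knockdowns (0.35, adjusted p = 0.334). The difference between the sets passed its own test (-0.63 ± 0.20 (SE), adjusted p = 0.0296).

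Rbm45, an RNA-binding protein first described in developing neural tissue and found in inclusions of motor neuron disease, had the largest change of the 63 within the new set. New-set controls were at 15.7, 17.3 and 11.7 FPKM and knockdowns at 5.39, 5.58 and 4.59 FPKM. All knockdown libraries were far below all controls, at a mean of 34.8% of control (-1.35 ± 0.15 (SE), limma adjusted p = 0.00811). First-set controls were at 18.6 and 9.98 FPKM and knockdowns at 7.17 and 6.45 FPKM, which did not overlap either (-0.91 ± 0.32 (SE), adjusted p = 0.0792). Rbm45 was the only one of the 6 whose new-set call held in every alternative run, including each left-out library.

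Rbm39, a splicing factor related to the large U2AF subunit, and Rbm26, a zinc-finger protein linked to nuclear RNA decay, fell modestly. Rbm39 was at 133, 151 and 149 FPKM in new-set controls and at 113, 112 and 113 FPKM in knockdowns (78.0% of control, -0.35 ± 0.08 (SE), limma adjusted p = 0.0372). Its first-set groups overlapped, with 233 and 174 FPKM in controls and 188 and 246 FPKM in knockdowns. Rbm26 was at 21.0, 21.2 and 21.4 FPKM in new-set controls and 16.9, 16.5 and 16.7 FPKM in knockdowns (78.9% of control, -0.32 ± 0.08 (SE), limma adjusted p = 0.0429). Its first-set values were 41.6 and 47.0 FPKM in controls and 26 and 37.5 FPKM in knockdowns, lower without overlap (-0.49, adjusted p = 0.181). The new-set calls of Rbm39, Rbm26 and Srsf4 were each lost in 5 of the 6 runs that left out 1 library, all but the one without control replicate 11, with adjusted p of up to 0.134, 0.148 and 0.160.

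**Figure D2:**
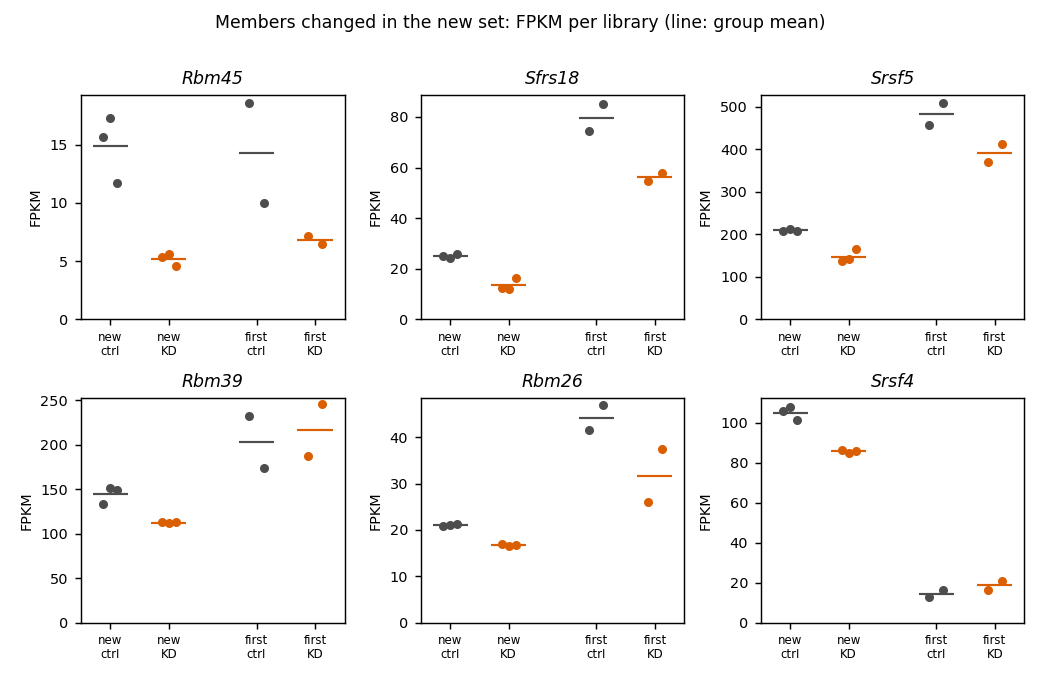
FPKM per library for the 6 genes that fell in the new set, with controls in grey and knockdowns in orange for both sets; points are libraries and lines are group means. In the new set no knockdown point reaches a control point in any panel, while in the first set Rbm39 overlaps and Srsf4 is reversed.

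With the replicate number as a block, which pairs each knockdown with the control of the same number, 10 of the 63 fell in the new set and none rose, against 10.7% lower and 11% higher over all genes. The added 4 were Srsf6 (log2 fold change -0.26, blocked adjusted p = 0.0457), Rbm10 (-0.26, 0.0464), Rbm20 (-0.55, 0.0408) and Rbm33 (-0.46, 0.0381). Srsf6, an SR protein of the same subgroup as Srsf4 and Srsf5, went from 99.5, 103 and 113 FPKM in controls to 87.9, 88.9 and 85.5 FPKM in knockdowns. Rbm10, a splicing regulator related to Rbm5 and Rbm6, went from 37.2, 35.1 and 38.1 FPKM to 33.3, 29.0 and 29.5 FPKM. Rbm20, known for its splicing of titin in heart, was low here, at 3.40, 2.19 and 2.52 against 1.87, 0.826 and 1.97 FPKM.

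Promoters of 4 of the 6 new-set fallers are shown because these genes were called lower in that set; nothing was measured at the promoters themselves. Each window runs from 250 bases before to 50 after the transcript start (RefSeq, GRCm38.p6), read along the gene's strand. Rbm45 lies at chr2:76369734-76370033 (plus strand), Srsf5 at chr12:80945249-80945548 (plus), Rbm26 at chr14:105177265-105177564 (minus), and 1 of the Rbm39 windows at chr2:156180189-156180488 (minus). Rbm42, at chr7:30650179-30650478 (minus), is added as the gene that rose most in the first set. Capitals mark exact matches on either strand to the ETS core CCGGAAG or to the palindromic element TCTCGCGAG, which reads almost the same on both strands.
Rbm45: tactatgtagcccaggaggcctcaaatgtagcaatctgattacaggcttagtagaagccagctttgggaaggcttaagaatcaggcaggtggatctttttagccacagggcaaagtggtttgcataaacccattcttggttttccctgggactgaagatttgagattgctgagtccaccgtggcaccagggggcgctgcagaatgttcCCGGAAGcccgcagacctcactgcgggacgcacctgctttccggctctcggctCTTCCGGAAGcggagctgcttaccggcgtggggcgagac
Srsf5: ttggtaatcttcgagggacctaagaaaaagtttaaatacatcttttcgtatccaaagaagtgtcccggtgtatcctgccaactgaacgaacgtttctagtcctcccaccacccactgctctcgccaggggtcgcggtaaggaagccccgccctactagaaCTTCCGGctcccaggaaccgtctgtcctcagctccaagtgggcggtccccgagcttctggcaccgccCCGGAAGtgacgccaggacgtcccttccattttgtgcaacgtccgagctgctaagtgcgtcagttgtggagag
Rbm26: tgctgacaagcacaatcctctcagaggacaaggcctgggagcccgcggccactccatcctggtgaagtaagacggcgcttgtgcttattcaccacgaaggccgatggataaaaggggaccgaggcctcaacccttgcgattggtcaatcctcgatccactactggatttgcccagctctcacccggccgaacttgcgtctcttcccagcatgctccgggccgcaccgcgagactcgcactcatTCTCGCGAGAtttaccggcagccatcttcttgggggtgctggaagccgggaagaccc
Rbm39: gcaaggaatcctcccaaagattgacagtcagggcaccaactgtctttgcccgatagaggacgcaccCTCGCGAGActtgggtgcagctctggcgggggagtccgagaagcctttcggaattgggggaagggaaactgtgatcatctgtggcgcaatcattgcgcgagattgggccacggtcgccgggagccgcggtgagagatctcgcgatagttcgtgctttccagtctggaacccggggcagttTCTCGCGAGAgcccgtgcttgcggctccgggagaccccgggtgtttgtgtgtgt
Rbm42: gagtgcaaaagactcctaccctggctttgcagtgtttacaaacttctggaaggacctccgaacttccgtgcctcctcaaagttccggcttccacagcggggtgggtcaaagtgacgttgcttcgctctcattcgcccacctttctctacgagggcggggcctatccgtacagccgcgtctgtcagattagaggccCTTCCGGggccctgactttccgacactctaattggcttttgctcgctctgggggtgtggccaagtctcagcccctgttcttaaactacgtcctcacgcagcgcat

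Rbm45 and Srsf5 each held the ETS core at 2 places and Rbm42 held it at 1, whereas Rbm26 held the palindromic element at 1 place and Rbm39 at 2. Windows were found for 55 of the 63 genes, 70 windows in all, and the motifs were searched in every one. The palindromic element was in 8.6% of the 70 windows, those of Rbm15, Rbm26, Rbm39, Srsf10 and Srsf4, against 1.5% of the windows of all genes tested in the new set and 0.7% of all RefSeq promoter windows. The ETS core was in 21.4%, 18.3% and 8.9% in the same order, and an E2F core (TTTCCCGC) in 7.1%, 2.0% and 1.1%. The GC box GGGCGG was in 67.1%, 64.5% and 35.7%, and the CCAAT box in 50%, 38.4% and 37.4%. A TATA box (TATAAA) was in 12.9%, 6.7% and 13.6%. Lower than over tested genes were a YY1 core (AAGATGG; 5.7%, 7.3% and 6.3%) and an NRF1 core (GCATGCGC; 4.3%, 5.5% and 2.7%). The median GC content of the 70 windows was 63%, with 61.3% over tested genes and 52.7% over all windows. These matches describe letters in the windows and were not tested as sites.

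In the first set 13 of the 63 genes fell and 2 rose. Over all 12461 genes tested 10.7% fell and 13.2% rose. The fallers were 2 SR genes (Srsf10 and Srsf11), 6 hnRNP genes (Hnrnpa0, Hnrnpa1, Hnrnpa2b1, Hnrnph2, Hnrnpk and Hnrnpl) and 5 RBM genes (Rbm5, Rbm18, Rbm22, Rbm4b and Rbm25), and Rbm42 and Rbm34 rose. These calls rest on 2 libraries a group. Leaving out 1 library leaves 1 in its group, and most calls were lost in each such run. Shares over all genes are not given for those runs, so the losses cannot be read as particular to the 63. There the log2 fold change ranged from 1.28 to 2.11 for Rbm42 and from -1.49 to -1.11 for Rbm5. Rescaling the libraries to equal median ratios left 2 risers and 4 fallers (Hnrnpa1, Rbm5, Rbm18 and Srsf10), against 15.3% higher and 5.3% lower over all genes. Rescaling to equal sums without small RNA genes left the 2 risers and 5 fallers (Hnrnpa1, Hnrnpa2b1, Hnrnpk, Rbm5 and Rbm18), against 14.5% and 2.96%.

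Among the SR genes, Srsf10, a splicing repressor when dephosphorylated, was at 205 and 170 FPKM in first-set controls and 77.8 and 111 FPKM in knockdowns (50.4% of control, -0.998 ± 0.242 (SE), limma adjusted p = 0.0266). Its new-set values overlapped fully: it was at 115, 124 and 109 FPKM in controls and 116, 118 and 110 FPKM in knockdowns. Srsf11, an SR-related protein, went from 109 and 113 FPKM to 54.7 and 76.0 FPKM in the first set (-0.77 ± 0.23 (SE), adjusted p = 0.0478). As deposited, 11 of the 12 SR genes had both first-set knockdown libraries below both controls, and Srsf4 had both above. The shares over all genes tested were 40.4% lower and 27.4% higher.

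The 6 hnRNP fallers of the first set included Hnrnpk, Hnrnpa1 and Hnrnpa2b1, which had the highest first-set control levels of the 18 hnRNP genes. Hnrnpk was at 1816 and 1401 FPKM in controls and 782 and 888 FPKM in knockdowns (51.9% of control, -0.94 ± 0.24 (SE), limma adjusted p = 0.0309). Hnrnpa1, an A/B-type hnRNP that represses exon use, was at 725 and 752 FPKM in controls and 379 and 375 FPKM in knockdowns (-0.97 ± 0.20 (SE), adjusted p = 0.0151). Hnrnpa2b1, its close relative, went from 807 and 639 FPKM to 378 and 375 FPKM (-0.93 ± 0.22 (SE), adjusted p = 0.0235). Both knockdown libraries lay below both controls in each of these genes, as they did in 12 of the 18 hnRNP genes, by a narrow margin in some, such as Hnrnpab (110.4 and 99.3 FPKM at the nearest pair). Hnrnpa0, Hnrnph2 and Hnrnpl had knockdown means of 50.7%, 56.0% and 52.2% of control. None of the 6 passed in the new set. As deposited, Hnrnpk went the other way there without overlap (1066, 1147 and 1037 FPKM in controls, 1166, 1243 and 1164 FPKM in knockdowns, limma adjusted p = 0.452). Its new-set log2 fold change was 0.14 as deposited and between 0.00 and 0.12 after rescaling the libraries.

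Rbm5, a regulator of alternative splicing of apoptosis genes, fell most in the first set, from 422 and 326 FPKM in controls to 134 and 167 FPKM in knockdowns (40.3% of control, -1.30 ± 0.23 (SE), limma adjusted p = 0.00846). New-set libraries overlapped: it was at 64.7, 70.0 and 63.9 FPKM in controls and 66.1, 65.0 and 53 FPKM in knockdowns. Rbm18 went from 105 and 91.2 FPKM to 48.8 and 49.1 FPKM (-0.98 ± 0.20 (SE), adjusted p = 0.0142), with no such shift in the new set. Rbm22, a component of the activated spliceosome, Rbm4b and Rbm25, a U1-associated splicing regulator, had knockdown means of 58.8%, 59.4% and 62.2% of control.

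Rbm42, an RNA-binding protein that associates with hnRNP K, rose in the first set from 17.3 and 9.33 FPKM to 57.2 and 33.2 FPKM, a mean of 3.39 times control (log2 fold change 1.70 ± 0.36 (SE), limma adjusted p = 0.0176). Among new-set libraries it was at 116, 130 and 114 FPKM in controls and 131, 153 and 128 FPKM in knockdowns, overlapping (0.19, adjusted p = 0.223). Rbm34 rose from 8.41 and 8.43 FPKM to 19.8 and 15.7 FPKM in the first set (0.98 ± 0.24 (SE), adjusted p = 0.0267) and stayed between 9.09 and 11.2 FPKM in all 6 new-set libraries. Both knockdown libraries were above both controls for these 2 genes.

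**Figure D3:**
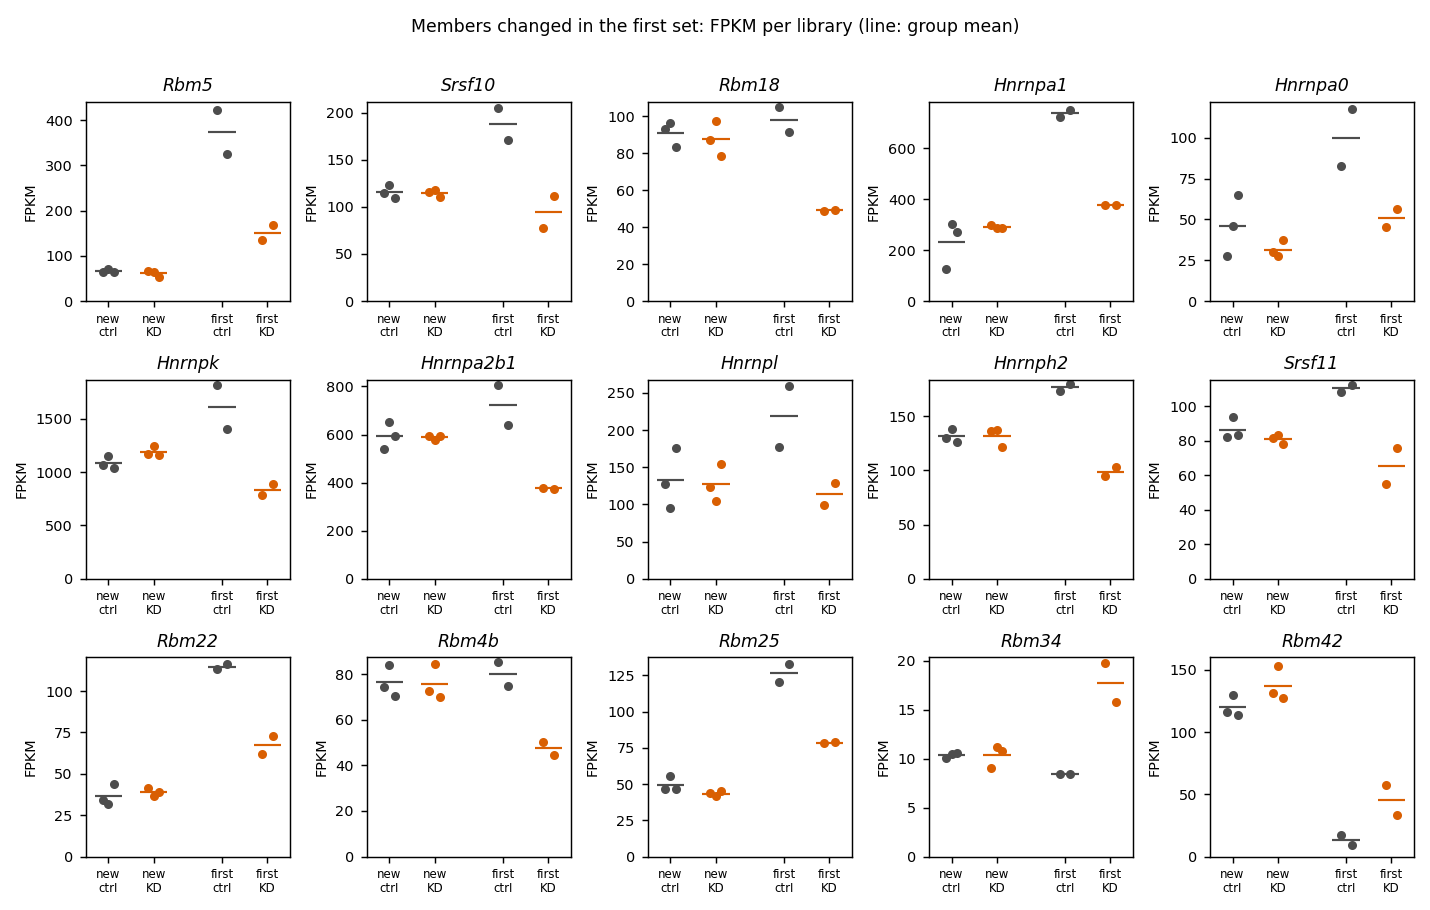
FPKM per library for the 15 genes that changed in the first set, with controls in grey and knockdowns in orange for both sets; points are libraries and lines are group means. First-set knockdown points lie below the controls in 13 panels and above them in Rbm34 and Rbm42, while most new-set groups overlap.

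None of the 63 genes passed in both sets. How many of all genes did so is not given, so this absence cannot be read as particular to the 63. Averaged over both sets in 1 joined fit, 24 fell and 2 rose (Rbm42 and Rbm34), against 20.5% lower and 9.37% higher over the 10827 genes tested in both. With a separate variance for each set, 14 fell and the same 2 rose, against 13.5% lower and 6.29% higher over all genes in that fit. Those 14 were Srsf5, Srsf10, Srsf11, Sfrs18, Hnrnpa2b1, Hnrnph2, Hnrnpu, Rbm4b, Rbm5, Rbm6, Rbm18, Rbm25, Rbm26 and Rbm45. A mean of both sets can pass on 1 set alone: Hnrnph2 had a new-set fold change of 0.00 and Srsf10 one of -0.01. The other 10 called only with a shared variance were Srsf1, Srsf2, Srsf6, Hnrnpa0, Hnrnpf, Hnrnph1, Hnrnpk, Rbm10, Rbm17 and Rbm22. The joined fit with the replicate block called 25 lower and the same 2 higher, against 23.2% and 10.9% over all genes. It gained Tra2b, Hnrnpl and Srsf7 (blocked adjusted p = 0.0372, 0.00667 and 0.0247) and lost Rbm10 and Srsf2 (0.0521 and 0.0501).

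The smallest p-values of the averaged fit belonged to Rbm45 (-1.13 ± 0.17 (SE), limma adjusted p = 0.00127), Sfrs18 (-0.67 ± 0.10, 0.00142), Rbm5 (-0.71 ± 0.11, 0.00162), Rbm18 (-0.52 ± 0.09, 0.00275) and Rbm42 (0.95 ± 0.17, 0.00335). Of these, Rbm45 and Sfrs18 were lower without overlap in each set, whereas Rbm5 and Rbm18 overlapped in the new set. Altogether 8 of the 63 genes (12.7%) were lower without overlap in both sets: Sfrs18, Srsf5, Srsf6, Rbm6, Rbm10, Rbm25, Rbm26 and Rbm45. None was higher in both, and in the deposited values Hnrnpc, Hnrnpk and Srsf4 were apart in opposite directions. Over all genes the shares were 7.60% lower in both, 3.57% higher in both and 12.9% opposite.

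Rbm6 and Rbm25 were lower without overlap in both sets, but Rbm6 passed in neither set alone (adjusted p = 0.174 and 0.0789) and Rbm25 only in the first (adjusted p = 0.212 in the new set). Rbm6, a relative of Rbm5, was at 49.9, 47.6 and 47.7 FPKM in new-set controls and 39.8, 43.5 and 44.8 FPKM in knockdowns. Its first-set values were 60.5 and 54.5 FPKM in controls and 35.3 and 40.9 FPKM in knockdowns (mean of both -0.38 ± 0.08 (SE), limma adjusted p = 0.00751). Rbm25 was at 46.7, 55.7 and 46.6 FPKM in new-set controls and 43.6, 41.6 and 45.0 FPKM in knockdowns, and went from 120 and 133 FPKM to 78.2 and 79.2 FPKM in the first set (mean of both -0.43 ± 0.09 (SE), adjusted p = 0.00449). The fold change of Rbm25 differed between the sets (0.49, limma adjusted p = 0.0469). The replicate block ended this call (adjusted p = 0.0536), and so did equal median ratios, equal sums without small RNA genes and a variance per set. The fold change of Rbm6 did not pass the test of a difference (0.41, adjusted p = 0.0867).

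The fold change differed between the sets for 25 of the 63 genes, higher in the new set for 21 and lower for 4 (Rbm42, Rbm24, Rbm34 and Srsf4), against 22.5% and 9.98% over all genes. This split followed the scaling: equal median ratios gave 10 higher and 6 lower (13.9% and 13% over all genes), and equal sums without small RNA genes gave 5 higher and 8 lower (7.22% and 14.6%). The replicate block gave 24 higher and the same 4 lower (24.8% and 11.3%), gaining Hnrnpl, Rbm17, Srsf3 and Srsf7 and losing Rbm25. Of the 25 differences, 8 also passed in each of the runs with either scaling or with a variance per set. They were Hnrnpk (1.07 ± 0.22 (SE), limma adjusted p = 0.00518), Hnrnpa2b1 (0.91, 0.00693), Hnrnph2 (0.83, 0.00376), Rbm5 (1.19, 0.00303), Rbm18 (0.93, 0.00406), Rbm34 (-0.99, 0.00545), Rbm42 (-1.50, 0.00831) and Srsf4 (-0.63, 0.0296). How many of all genes held in these runs is not given, so the 8 cannot be read as particular to the 63. Rbm24, best known as a splicing regulator of muscle, was at 7.68, 11.4 and 10.5 FPKM in new-set controls and 4.76, 7.99 and 9.84 FPKM in knockdowns, but at 6.51 and 6.70 FPKM in first-set controls and 15.1 and 9.06 FPKM in knockdowns.

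**Figure D4:**
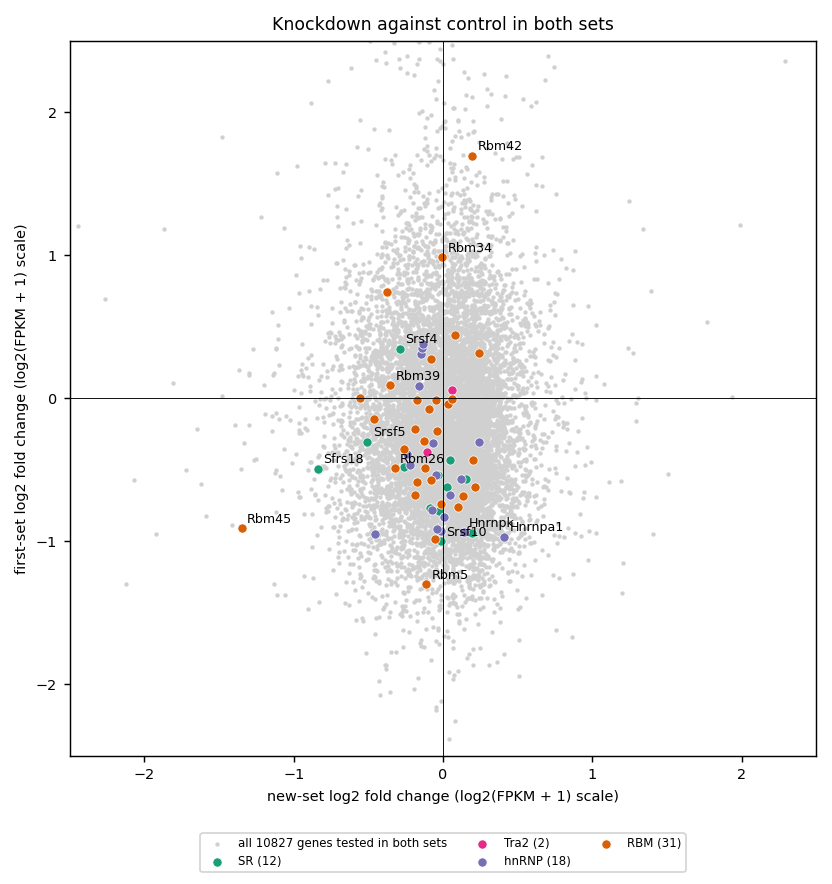
New-set log2 fold change (horizontal) against first-set log2 fold change (vertical), both on the log2(FPKM + 1) scale, for the 63 genes coloured by family over all 10827 genes tested in both sets in grey; 63 grey genes lie outside the axes. Rbm45 and Sfrs18 stand at the lower left, and Rbm42 and Rbm34 at the top.

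As families, the 63 genes had a median log2 fold change of -0.07 in the new set, where all tested genes had 0.02, and of -0.46 in the first set, where all had -0.15. Subtracting the median of all genes left -0.05 for SR genes, -0.08 for hnRNP genes and -0.10 for RBM genes in the new set. With 1 new-set library left out these values ranged from -0.09 to -0.01, from -0.13 to -0.05 and from -0.13 to -0.06. The same difference in the first set was -0.41 for SR genes, -0.41 for hnRNP genes and -0.08 for RBM genes. It moved with single libraries: SR and hnRNP genes were at -0.63 and -0.64 without control replicate 1, and hnRNP genes at -0.26 without control replicate 2. RBM genes were at 0.04 without knockdown replicate 1, -0.23 without knockdown replicate 2 and -0.15 without control replicate 2, and at -0.20 with a pseudocount of 0.1, so the sign of their first-set value differed between runs. A minimum of 5 FPKM put both SR and hnRNP genes at -0.26, and no filter put both at -0.67 and RBM genes at -0.35. Rescaling moved the median of all genes in the first set to 0.01 (equal median ratios), 0.03 (equal sums) or -0.41 (olfactory receptor level subtracted), and in the new set to -0.10 (equal sums). Relative to it, SR and hnRNP genes were both at -0.39 in the first set under either scaling, and at -0.16 and -0.22 after the subtraction. Fold changes from the deposited values were below 0 in both sets for 33 of the 63 genes (52.4%) against 29.8% of all genes.

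Summed hnRNP levels were 5419 and 5051 FPKM in first-set controls and 3114 and 3267 FPKM in knockdowns. New-set sums of the deposited values overlapped, at 4825, 5346 and 4846 FPKM in controls and 5162, 5197 and 5062 FPKM in knockdowns. The summed SR level was 1819 and 1765 FPKM in first-set controls and 1237 and 1278 FPKM in knockdowns. In the new set the deposited SR sums also overlapped. These overlaps hold for the deposited scale only, and family sums after rescaling are not given. As a share of the summed FPKM without small RNA genes, the 63 genes together did not overlap in the new set. They made up 1.66 to 1.72% in new-set controls and 1.53 to 1.57% in knockdowns. In the first set this share was lower in both knockdowns as well.

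**Figure D5:**
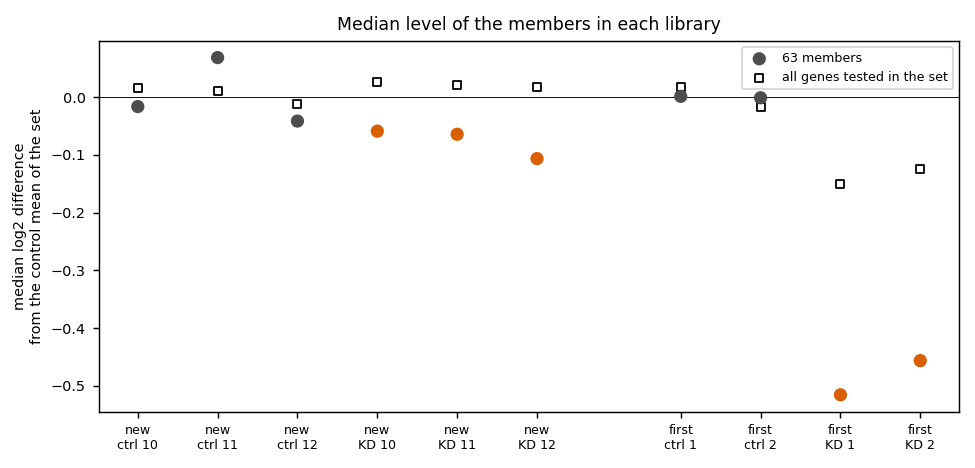
Median log2 difference of each library from the control mean of its set, for the 63 genes (filled circles; grey controls, orange knockdowns) and for all genes tested in the set (open squares). The first-set knockdowns lie at -0.52 and -0.46 for the 63 genes and at -0.15 and -0.13 for all genes.

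Tra2a and Tra2b, which activate exons with GA-rich enhancers, changed in neither set. Tra2b was at 244, 267 and 225 FPKM in new-set controls and 244, 230 and 208 FPKM in knockdowns, and at 248 and 222 FPKM in first-set controls and 186 and 175 FPKM in knockdowns (mean of both -0.24 ± 0.09 (SE), limma adjusted p = 0.0629; with the replicate block 0.0372). Tra2a overlapped in both sets (mean of both 0.06 ± 0.12 (SE), adjusted p = 0.754). Rbm3 too overlapped in both, at 255 to 337 FPKM in all 10 libraries. Rbm8a, the exon junction core protein Y14, was at 69.4 ± 9.75 FPKM in new-set controls and 79.6 ± 1.26 FPKM in knockdowns (SD, n = 3; adjusted p = 0.227), and at 94.7 and 102 FPKM against 78.3 and 67.1 FPKM in the first set (adjusted p = 0.154).

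Other genes of the splicing pathway were read from 4 lists. Over all genes tested in the new set 5.15% fell and 3.84% rose, with a median log2 fold change of 0.02. In the first set 10.7% fell and 13.2% rose, with a median of -0.15. Of 19 tested SR protein kinases and partners 5 fell in the new set and none rose, with a list median of -0.25 (-0.50 in the first set). They were the CLK kinases Clk1 (52.0 ± 7.45 to 22.8 ± 1.63 FPKM, SD, n = 3) and Clk4 (45.2 ± 3.75 to 21.6 ± 1.12 FPKM), which phosphorylate SR proteins, the U1-associated Luc7l and Luc7l3, and Pnn, the pinin that Pnisr binds. Their new-set log2 fold changes were -1.15, -1.03, -0.53, -0.54 and -0.44. Luc7l3 (-1.54) and Luc7l (-1.28) fell in the first set with 2 others, Srpk2 and Tnpo3, whereas Clk1 (-0.23, adjusted p = 0.453) and Clk4 (-0.15, 0.607) did not pass. In the core spliceosome list 1 of 61 genes fell in the new set, Cwc22 (54.4 ± 1.21 to 25.7 ± 3.56 FPKM), a spliceosomal partner of the exon junction factor Eif4a3. Of the 61, 14 fell and 3 rose in the first set, with Cwc22 (-1.38), Prpf31, Sf3b3 and Dhx15 among the fallers.

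Among hnRNP relatives outside the naming rule, such as Ptbp1 and Tardbp, more genes passed in the first set. The same was true over all genes, with 10.7% lower and 13.2% higher there against 5.15% and 3.84% in the new set. Of 21 relatives 1 fell in the new set, Ptbp1, the repressor of neuronal exons (90.0 ± 6.13 to 63.3 ± 6.61 FPKM, SD, n = 3; limma adjusted p = 0.0262), and none rose. In the first set 6 fell and 2 rose: Rbmx (-1.09), Tardbp (-1.02) and Ptbp1 (-0.83) were among the fallers, and Pcbp4 rose (1.69). Of 23 neuronal splicing regulators Rbfox2 rose in the new set (0.38, adjusted p = 0.0328) and none fell, whereas 8 fell in the first set, including Elavl2 (-1.39), Qk (-1.56), Msi2 (-1.05) and Elavl4 (-1.04).

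Gene-level FPKM does not separate isoforms, so the annotated transcripts are given as background only. GENCODE lists at least 1 nonsense-mediated decay transcript for 49.2% of the 63 genes, against 29.9% of the protein-coding genes tested in the new set. The share was 83.3% of SR genes, 44.4% of hnRNP genes and 35.5% of RBM genes, and both Tra2 genes had one. Retained-intron transcripts were listed for 68.3% of the 63 and for 60.8% of tested genes. Of the 6 new-set fallers Rbm39 had 8 decay transcripts and 7 with retained introns, and Srsf5 had 1 and 3, whereas Rbm45 and Rbm26 had neither. GENCODE also places Hnrnpk, Hnrnpu, Hnrnpab, Hnrnph3, Rbm10, Rbm18, Rbm4b, Rbm15b and Srsf2 over a gene on the opposite strand and Rbm12, Rbm14, Rbm4, Hnrnpm and Hnrnpul2 over one on the same strand, and Rbm4 and Rbm4b are near copies, so reads of these genes may be shared. Hnrnpa1 has processed copies elsewhere in the genome, which makes its FPKM uncertain as well.

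At the edge of the rule Rbm43 had mean control levels of 1.92 FPKM in the new set and 1.44 FPKM in the first, and Rbm38 of 1.99 and 8.28 FPKM. Just outside it were Rbm11 (0.358 and 0.155 FPKM) and Rbm46 (0.115 and 0.0179 FPKM). Rbm47, Rbm44 and Rbm31y were below 0.1 FPKM in the controls of both sets, the last listed at 0 in all 10 libraries. In the first-set knockdowns Rbm11 was at 2.60 and 0.952 FPKM, Rbm46 at 1.08 and 0.664 FPKM and Rbm47 at 1.25 and 1.04 FPKM. The olfactory receptor mean of the same libraries was 1.39 and 0.993 FPKM.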

How the data were processed

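RNA sequencing of sorted GFP-positive cortical cells gave 10 libraries. The authors deposited FPKM values in 2 tables, each with 23235 gene symbols and a column for each library. Total RNA came from an RNeasy Plus extraction and the libraries from a Clontech low-input protocol, per the labels' protocols. TopHat2, Bowtie, Cufflinks 2.0.0, Cuffdiff and build mm9 are listed in the submitters' processing notes. Which gene annotation and strand setting were used is not given in the sources used here.

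On the log2(FPKM + 1) scale, every gene that averaged 1 FPKM or more in a table was tested by limma 3.58.1 (R 4.3.3) (intensity trend, two-sided, Benjamini-Hochberg adjustment over all genes tested). The new set had 4 residual degrees of freedom, the first set 2 and the joined fit of both sets 6. Fold changes were taken within a table. The joined fit shares 1 variance between the sets, and a fit with a variance weight per set was added after seeing the data. The fits were tested on simulated data.

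New-set libraries with the same replicate number deviated together across genes (r = 0.12, 0.24 and 0.19), against r of -0.16 to -0.01 for unlike numbers. The sample titles give a number but no pairing, so pairing is inferred from these values only. The main fits do not use it, and the replicate block does. The replicates are pools of embryos. Alternatives were other pseudocounts, filters and scalings, no trend, a replicate block, subtraction of the olfactory receptor level, and each library left out.

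The genes, lists and naming rule were chosen with earlier results of these data known. Named were Chd8, genes called in a set, in the mean or in the difference, the 4 most abundant of each family, the 5 smallest p in the mean of both sets, 2 genes on each side of the 1 FPKM limit, and up to 4 genes per pathway list. Other genes named as examples were chosen after their values were seen. Promoters came from RefSeq (GRCm38.p6) and isoforms from GENCODE, matched by symbol (63 of 63 in GENCODE). Some genes that the naming rule selects, and 1 gene list, are not reported here.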

Additional observations from a re-analysis of the deposited data

Results flagged for a closer look

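The 25 genes below had fold changes that differed between the sets in the test of the difference itself (limma, joined fit, adjusted p under 0.05). Values are the new-set minus the first-set log2 fold change on the log2(FPKM + 1) scale. The number of such genes and their split depend on the scaling, as given above.

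Among SR genes the difference was 1.14 for Srsf12, 0.98 for Srsf10, 0.76 for Srsf1, 0.72 for Srsf9, 0.68 for Srsf11, 0.65 for Srsf2 and -0.63 for Srsf4. Srsf12 had 6.68, 5.98 and 4.48 FPKM in new-set controls and 6.53, 6.8 and 6.53 FPKM in knockdowns, but 11.2 and 7.79 FPKM in first-set controls and 3.20 and 5.94 FPKM in knockdowns.

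The hnRNP differences were 1.37 for Hnrnpa1, 1.07 for Hnrnpk, 0.91 for Hnrnpa2b1, 0.83 for Hnrnph2, 0.72 for Hnrnpf, 0.71 for Hnrnpu and 0.55 for Hnrnpc. For Hnrnpa1 the new-set control replicate 10 stood at 127 FPKM, below the 303 and 272 FPKM of the other controls.

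RBM genes differed by 1.19 for Rbm5, 0.93 for Rbm18, 0.86 for Rbm22, 0.83 for Rbm4, 0.81 for Rbm12, 0.73 for Rbm4b, 0.64 for Rbm8a and 0.49 for Rbm25. The difference was -1.50 for Rbm42, -1.12 for Rbm24 and -0.99 for Rbm34.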

How the results depend on the processing

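No gene called in a set or in the mean of both sets changed direction under any alternative, and 213 of 752 values for these genes lost their call. The differences between sets are not among the 752. Their direction was compared only under the scalings and the olfactory receptor subtraction, where none of the 25 changed sign. The number of changed genes in the new set was 6, and it was 3 with no filter, 3 with no trend, 12 with equal sums without small RNA genes, 10 with the replicate block, and 1 to 9 with 1 library left out. In the first set it was 15, and 4 with no filter, 6 with median-of-ratios scaling, 7 with equal sums, and 0 to 1 with 1 library left out. There libraries with the same number did not deviate together (r = -0.03), and the replicate block gave 16 (12.7% higher and 9.1% lower over all genes), with Hnrnpu and Srsf1 gained and Rbm25 lost. Beside these and the changes named above, the block changed no call of the 63 genes. The mean of both sets called 26, and 17 with median-of-ratios scaling, 16 with a variance weight per set, and 17 to 30 with 1 library left out. Differences between sets numbered 25, and 16 with median-of-ratios scaling, 13 with equal sums, 15 with the variance weight, and 15 to 27 with 1 library left out. Chd8 in the new set ranged from -0.70 to -0.59 with 1 library left out and lost its call in 5 of 6 runs (adjusted p up to 0.0829). The median fold change of the genes moved to -0.20 in the new set with equal sums (-0.09 to -0.05 with 1 library left out), and in the first set to -0.29 with median-of-ratios scaling, -0.27 with equal sums, -0.57 after background subtraction and -0.52 to -0.38 with 1 library left out. Leaving out a first-set library leaves 1 library in its group, which is then assumed to vary like the other group. Shares over all genes are not given for the runs with a library left out, no filter or no trend. They are also not given for the mean of both sets with median-of-ratios scaling or for the differences with the variance weight. A loss of calls in those runs therefore cannot be read as particular to the 63 genes. The cause of the shifts in these counts and medians was not tested. Depth is unknown, so no counting error can be given.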
